A study of Mus musculus with 5 samples.

Results

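Semaphorins, plexins, Robo receptors, Slit ligands, UNC5 receptors and netrins were described in endothelial cells isolated from the lungs of mice that were wild-type (WT) or lacked TET2 in endothelium (TET2KO). TET2 is an enzyme that oxidises methylated cytosine in DNA. Members were taken by symbol, but the set itself was chosen with earlier results of these data known. Comparisons of the set with all genes are therefore descriptive. The set held 43 of the 49315 genes counted. They were 20 semaphorins of classes 3 to 7, 9 plexins, 4 Robo, 3 Slit, 4 Unc5 and 3 netrin genes. All mice of both groups had received angiotensin II, a vasoconstrictor hormone, by infusion for 28 days, and there were 3 WT and 2 TET2KO libraries of poly(A) RNA. The promoter that drove the deletion, the deleted exons of Tet2, and the age, sex and strain of the mice are not given in the sources used here. The same holds for the isolation method and for the number of animals behind a library. All p-values therefore refer to the spread among these 5 libraries, which may be technical.

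These families were named for steering growing axons, and they act in vessels as well. Class 3 semaphorins are secreted and bind neuropilins that signal through plexins, while semaphorins of classes 4 to 7 are anchored in the membrane and bind plexins directly, and plexins lower integrin adhesion through small GTPases. Slit proteins bind receptors of the Robo family such as Robo1 and Robo2, and Robo4 is the family member of endothelium. Netrins bind DCC, neogenin and UNC5 receptors, of which Unc5b is carried by sprouting endothelium.

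Total counts were between 27346804 and 35440257 per library, and 40 of the 43 genes had enough counts to be tested. Every library held endothelial and leukocyte transcripts: a list of 28 endothelial genes summed to 6252.5, 5135 and 8524 CPM (counts scaled to library size with TMM factors) in WT replicates 1 to 3 and to 10899 and 11118 CPM in TET2KO replicates 1 and 2. This list was higher in both TET2KO libraries than in any WT library. A list of macrophage and monocyte genes was highest in WT replicate 2, at 42032 CPM, and lay between 5191 and 12117 CPM in the other 4 libraries. Tet2 itself had a log2 fold change of 0.02 (SE 0.19, edgeR adjusted p = 0.987). With the deleted exons unknown, that level is no check of the genotype labels. The fold changes in the authors' deposited table did not compare the groups as labelled. They lay within 0.05 (log2) of the ratio of WT replicate 3 and both TET2KO libraries to WT replicates 1 and 2 for 99.99% of 18019 genes, and within 0.05 of the ratio of the labelled groups for 13.9%. The labels were followed here, and main results are also given without WT replicate 3. Below, values per library follow the order of the replicate numbers.

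Most guidance genes were higher in the TET2KO libraries. Of the 40 tested genes 30 had a log2 fold change above 0, against 41.6% of all 18727 tested genes, and the median was 0.62 against -0.08 over all tested genes. In 22 guidance genes each TET2KO library exceeded every WT library, and in 1, Sema4b, each was under every WT library. Over all tested genes the shares were 12.4% above and 12.4% below. No guidance gene passed the correction over all genes: with Benjamini-Hochberg adjustment edgeR's quasi-likelihood test called 0 of 40, as it called 0% of all genes, with adjusted p values from 0.740 to 0.987. At an unadjusted p under 0.05 edgeR counted 16 guidance genes higher, where 5.32% of all genes were, and 0 lower, where 0.539% were. Leaving out 1 library moved the count of 16 to 7 (WT replicate 1), 17 (WT replicate 2), 18 (WT replicate 3), 6 (TET2KO replicate 1) or 4 (TET2KO replicate 2). The share of all genes that were higher at this threshold moved too, to 3.74%, 7.72%, 6.34%, 3.4% and 1.36% in the same order. DESeq2 called 1 guidance gene, Sema6d, higher at an adjusted p of 0.0327, where it called 0.395% of genes higher and 0% lower. At an unadjusted p under 0.05 DESeq2 counted 16 guidance genes higher and 1 lower, where 5.68% and 0.555% of all genes were.

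**Figure D1:**
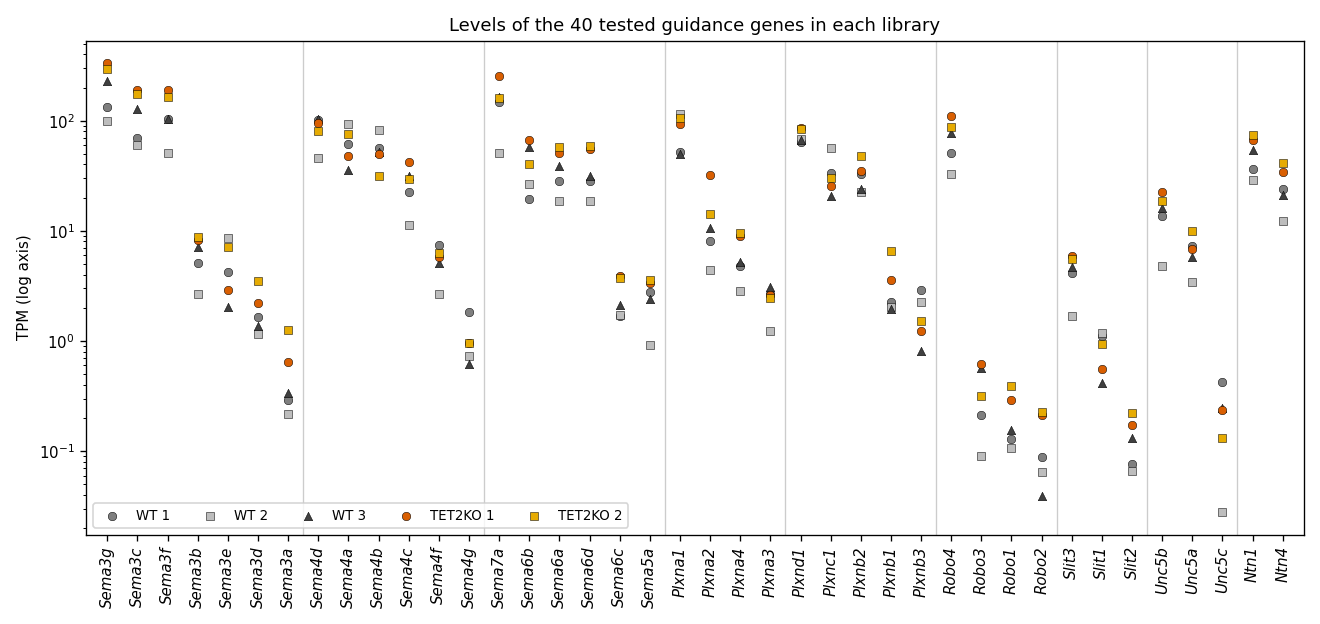
TPM (transcript level per length and library, log axis) of the 40 tested genes, 1 point per library, grouped by class with grey lines between classes. Sema3g reached 333 TPM in TET2KO replicate 1, while Robo1, Robo2 and Slit2 stayed under 0.5 TPM in all 5 libraries.

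Endothelial transcripts were higher in the same libraries. The endothelial list had a median log2 fold change of 0.77. Each TET2KO library was over every WT library for 26 of its 28 genes, against 12.4% of all tested genes. When libraries were scaled on that list in place of TMM, the median of the guidance genes was -0.11, 16 of 40 were above 0 and 24 below, and the median of all tested genes was -0.86. In that fit edgeR counted 0 guidance genes higher and 2 lower at an unadjusted p under 0.05, where 0.123% of all genes were higher and 35.9% lower, and 0 passed the correction. In bulk samples fewer cells of a type and less RNA per cell cannot be told apart.

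**Figure D2:**
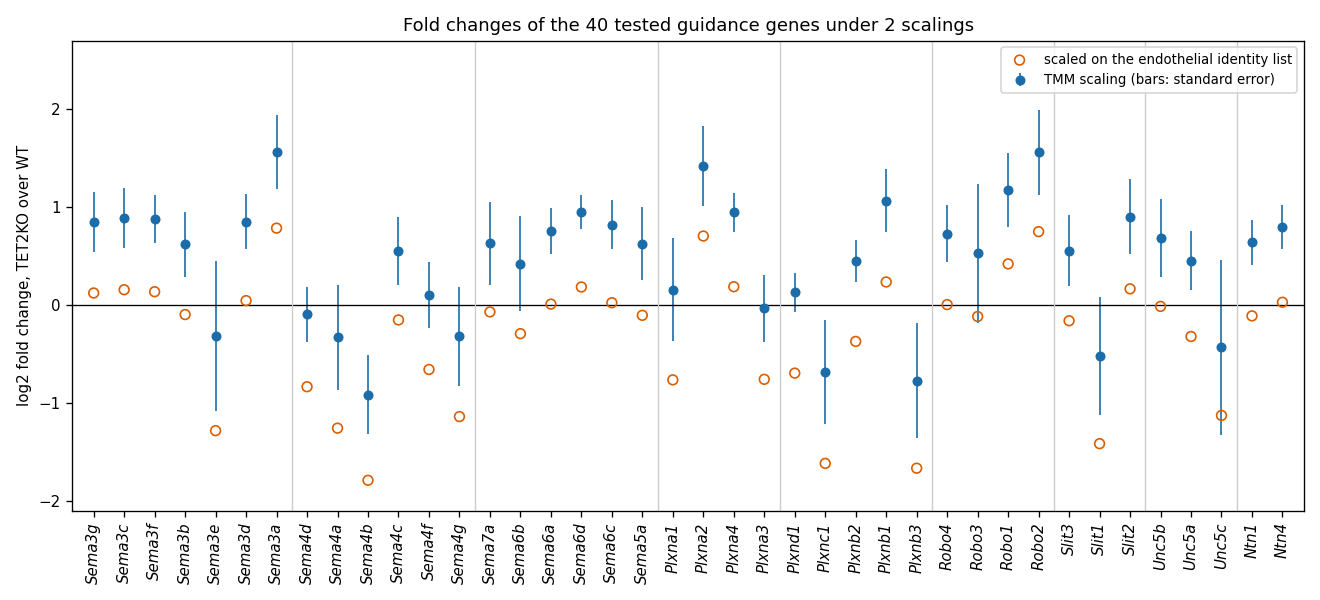
Log2 fold change of TET2KO over WT for the 40 tested genes. Blue points with bars are the edgeR estimates under TMM scaling with their standard errors, and open orange circles are the estimates with libraries scaled on the endothelial identity list; the median was 0.62 under TMM and -0.11 under endothelial scaling.

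Class 3 semaphorins, the secreted ligands, were the most abundant class in the TET2KO libraries, and most members were higher there. Their summed level was 318, 224 and 472 TPM in WT replicates 1 to 3 and 728 and 654 TPM in the TET2KO libraries. Of 7 members 6 had a log2 fold change above 0 and had each TET2KO library over every WT library. Over all tested genes these shares were 41.6% and 12.4%. The class median was 0.85, and it was 0.12 with endothelial scaling. Counting error was small for Sema3g, Sema3c and Sema3f, which had at least 2957 counts in every library.

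Sema3g, a semaphorin made by arterial endothelium (ENSMUSG00000021904, GRCm38 chromosome 14, 31217860 to 31230352, plus strand), stood at 174, 172 and 307 CPM in WT replicates 1 to 3 and at 414 and 368 CPM in TET2KO replicates 1 and 2. WT replicate 3 lay nearer to the TET2KO libraries than to the other WT libraries, and the groups did not overlap. The difference was 0.85 on the log2 scale (SE 0.30, edgeR adjusted p = 0.812), and it was 1.21 without WT replicate 3. As a share of the summed endothelial list, Sema3g was 2.78%, 3.36% and 3.60% in WT and 3.80% and 3.31% in TET2KO, so the groups overlapped on that measure.

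Sema3c, a ligand that acts through neuropilins and plexin-D1 in the developing heart (ENSMUSG00000028780, chromosome 5, 17574281 to 17730268, plus strand), had levels of 142, 165 and 269 CPM (WT) and 369 and 341 CPM (TET2KO). Its pattern over the libraries was like that of Sema3g, with WT replicate 3 between the other libraries of the 2 groups. The log2 difference was 0.89 (SE 0.30, edgeR adjusted p = 0.792), and 1.24 without WT replicate 3. Its share of the endothelial list was 2.26%, 3.21% and 3.15% in WT and 3.39% and 3.06% in TET2KO.

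Sema3f, a ligand of neuropilin-2 that restrains vessel growth (chromosome 9, 107681500 to 107710475, minus strand), had levels of 153, 99.9 and 158 CPM (WT) and 273 and 232 CPM (TET2KO). The WT libraries did not reach the TET2KO range, and WT replicate 3 was close to WT replicate 1. The log2 difference was 0.88 (SE 0.24, edgeR adjusted p = 0.740). On the scale of TPM these 3 genes had means of 219, 124 and 122 over the 5 libraries, against at most 6.41 TPM for any other class 3 member.

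Sema3a, the founding repulsive ligand of the class, was scarce, with 33, 34 and 43 counts in WT and 81 and 153 counts in TET2KO. Its level was 1.16, 1.15 and 1.37 CPM in WT and 2.45 and 4.79 CPM in TET2KO. The groups did not overlap, but the TET2KO libraries differed from each other more than the WT libraries did. Its log2 difference of 1.56 (SE 0.38, edgeR adjusted p = 0.740) was 1.00 when TET2KO replicate 2 was left out and 1.96 when TET2KO replicate 1 was, and DESeq2 gave an adjusted p of 0.092. Sema3d had levels of 4.03, 3.75 and 3.46 CPM (WT) and 5.26 and 8.27 CPM (TET2KO), a log2 difference of 0.85 (SE 0.28). Sema3a, Sema3c, Sema3d and Sema3e all lie on chromosome 5.

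Sema3b and Sema3e were the other class 3 members. Sema3b ranged from 4.87 to 9.95 CPM in WT and from 10.8 to 11.6 CPM in TET2KO. Sema3e, the ligand of plexin-D1, was highest in WT replicate 2 at 30.4 CPM and lay between 5.59 and 18.0 CPM elsewhere. Its log2 fold change was -0.31 (SE 0.76), and 0.63 without WT replicate 2, the library richest in macrophage transcripts; the part of those cells in this result was not tested.

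Promoter sequences of 4 genes that were higher in both TET2KO libraries are shown because TET2 acts on methylated cytosine next to guanine, and these genes differ widely in how many such CG pairs lie at their start. The sequences are RefSeq windows of GRCm38.p6 from 250 bases before to 50 bases after a gene start, 5′ to 3′, with CG pairs in capitals. Sema3g lies at chr14:31217623-31217922 (plus strand, 8 CG), Sema3c at chr5:17574566-17574865 (plus strand, 42 CG), Sema6d at chr2:124089719-124090018 (plus strand, 14 CG, the first of 2 windows) and Robo4 at chr9:37401722-37402021 (plus strand, 2 CG).
Sema3g: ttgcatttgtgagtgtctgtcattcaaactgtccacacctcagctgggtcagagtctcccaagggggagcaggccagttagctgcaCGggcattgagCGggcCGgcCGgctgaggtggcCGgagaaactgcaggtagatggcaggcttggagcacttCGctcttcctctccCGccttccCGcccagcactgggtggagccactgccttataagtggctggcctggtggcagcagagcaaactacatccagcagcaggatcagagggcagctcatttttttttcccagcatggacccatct
Sema3c: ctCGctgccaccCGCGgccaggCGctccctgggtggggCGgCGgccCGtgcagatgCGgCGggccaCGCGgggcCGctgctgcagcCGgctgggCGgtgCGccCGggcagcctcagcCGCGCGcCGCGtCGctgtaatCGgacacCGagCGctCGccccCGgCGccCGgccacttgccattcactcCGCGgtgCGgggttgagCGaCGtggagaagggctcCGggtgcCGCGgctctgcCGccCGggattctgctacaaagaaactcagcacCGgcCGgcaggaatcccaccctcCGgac
Sema6d: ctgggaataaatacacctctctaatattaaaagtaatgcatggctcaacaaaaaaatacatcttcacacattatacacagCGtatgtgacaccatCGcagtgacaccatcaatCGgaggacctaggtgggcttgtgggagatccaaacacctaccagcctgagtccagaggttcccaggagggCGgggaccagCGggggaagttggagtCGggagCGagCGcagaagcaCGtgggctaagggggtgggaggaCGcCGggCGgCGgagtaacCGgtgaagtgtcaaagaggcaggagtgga
Robo4: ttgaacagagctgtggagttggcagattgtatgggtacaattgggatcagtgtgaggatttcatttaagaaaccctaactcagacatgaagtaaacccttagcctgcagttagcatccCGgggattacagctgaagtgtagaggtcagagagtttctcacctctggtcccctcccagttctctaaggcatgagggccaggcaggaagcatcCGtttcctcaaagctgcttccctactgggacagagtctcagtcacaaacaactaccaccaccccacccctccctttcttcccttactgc

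The letters CG, which read the same on both strands, were in 94.6% of the 32851 windows of this length, with a median of 7 per window. As many as the 42 of Sema3c were in 3.0% of windows, while 85.9% held at least the 2 of Robo4. Of the 43 guidance genes 35 had a window, and the other 8 were not described in this way. In the window richest in CG of each gene, the median was 23 for the 17 genes with each TET2KO library over every WT library and 23 for the 15 genes whose groups overlapped. The letters AGGAAG or CGGAAG, which match the core bound by ETS factors, were searched on both strands and were in 43.8% of the 48 guidance windows and 46.5% of all windows. Methylation was not measured in these samples, and a match of letters shows no binding.

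Class 4 semaphorins, several of which are made by leukocytes, had no common direction. Their summed level was 250, 238 and 228 TPM in WT and 240 and 224 TPM in TET2KO, and the groups overlapped. Of 6 members 2 had a log2 fold change above 0 and 4 below, with a median of -0.21; it was -0.99 with endothelial scaling, 0.095 without WT replicate 1 and 0.088 on log2(TPM + 1). No member had each TET2KO library over every WT library, where 12.4% of all tested genes did.

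Sema4d, the lymphocyte semaphorin CD100, had levels of 187, 113 and 196 CPM (WT) and 166 and 142 CPM (TET2KO), a log2 difference of -0.10 (SE 0.28, edgeR adjusted p = 0.948). The TET2KO libraries lay inside the WT range. A list of 8 B cell genes summed to 4362, 1541 and 5464 CPM in WT and to 3777 and 2377 CPM in TET2KO, and a list of 10 T and NK cell genes to 450, 235 and 523 CPM and to 435 and 378 CPM, so all 3 had the same order over the 5 libraries. The part of these cells in the level of Sema4d was not tested.

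Sema4a, a semaphorin of myeloid and dendritic cells, had levels of 94.0, 193 and 56.6 CPM (WT) and 70.4 and 112 CPM (TET2KO). It was highest in WT replicate 2, where the macrophage list was highest, and its log2 fold change turned from -0.33 (SE 0.53) to 0.31 without that library. Sema4b had levels of 90.3, 178 and 86.9 CPM (WT) and 76.8 and 48.5 CPM (TET2KO), a log2 difference of -0.92 (SE 0.40, edgeR adjusted p = 0.864). It was the guidance gene with the lowest log2 fold change, and the value was -0.47 without WT replicate 2. Sema4c lay between 19.8 and 42.4 CPM in WT and between 37.2 and 52.8 CPM in TET2KO. Sema4f and Sema4g were at most 11.1 CPM in any library and their groups overlapped.

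Semaphorins of classes 5 to 7 were higher in TET2KO under TMM, with 6 of 6 tested members above 0 and a median of 0.69, though the median was -0.03 with endothelial scaling. Sema6d, a transmembrane ligand of plexin-A1 (ENSMUSG00000027200, chromosome 2, 124089969 to 124667770, plus strand), had levels of 84.9, 74.6 and 98.7 CPM (WT) and 160 and 172 CPM (TET2KO). The gap between the groups was wider than the spread within either. The fold change was 1.93, or 0.95 on the log2 scale (SE 0.17, edgeR adjusted p = 0.740, DESeq2 adjusted p = 0.0327), and it lay between 0.88 and 1.09 with each library left out in turn. Sema6d was 1.36%, 1.45% and 1.16% of the endothelial list in WT and 1.47% and 1.55% in TET2KO, where the gap between the groups was smaller than the spread within WT.

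Sema6a, a transmembrane ligand of plexin-A2 and plexin-A4, had levels of 71.4, 62.4 and 99.3 CPM (WT) and 122 and 140 CPM (TET2KO), a log2 difference of 0.75 (SE 0.24). Sema6c had levels of 2.87, 3.89 and 3.72 CPM (WT) and 6.28 and 6.05 CPM (TET2KO), a log2 difference of 0.82 (SE 0.25). The groups did not overlap for either gene. With endothelial scaling the log2 differences were 0.0092 for Sema6a and 0.023 for Sema6c.

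Sema7a, a membrane-linked semaphorin that binds plexin-C1 and integrins, was the second semaphorin by mean level, at 156 TPM. It had levels of 140, 63.5 and 160 CPM (WT) and 228 and 147 CPM (TET2KO), and the groups overlapped. Sema6b had levels of 22.1, 40.1 and 67.7 CPM (WT) and 72.1 and 43.9 CPM (TET2KO), also with overlap. Sema5a ranged from 3.79 to 8.55 CPM in WT and from 9.94 to 10.6 CPM in TET2KO. Sema5b had 1 count in each WT library and 3 and 5 counts in TET2KO and was not tested.

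**Figure D3:**
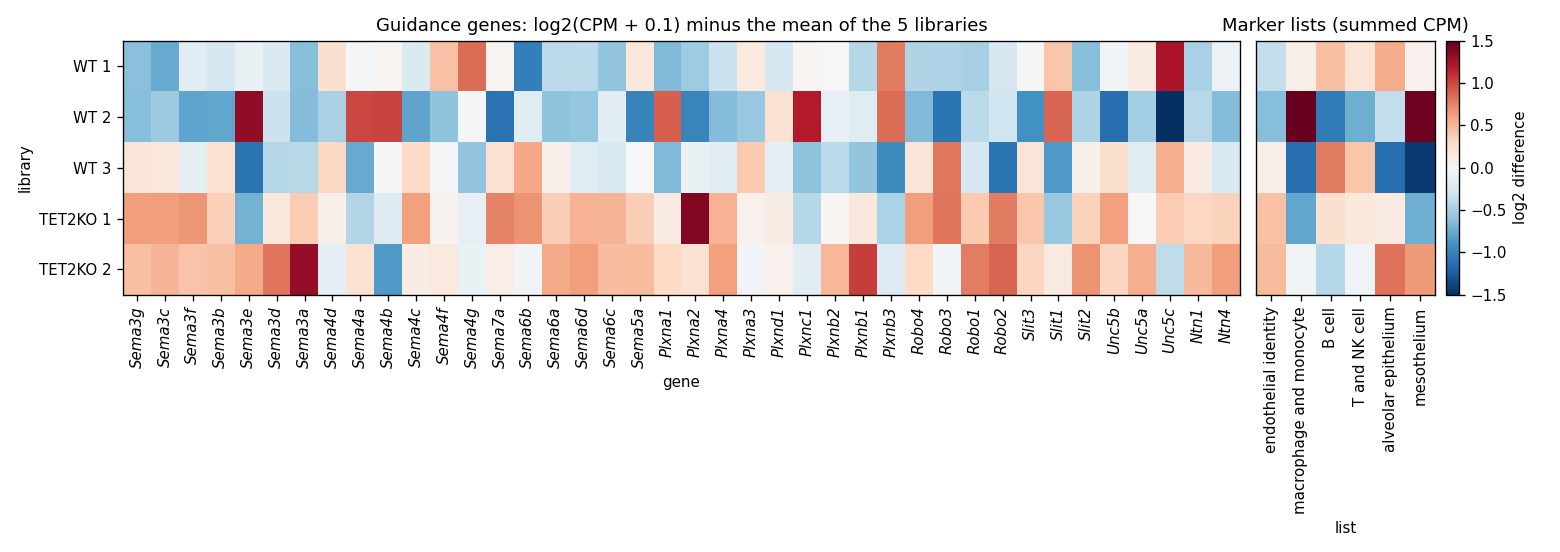
Left, log2(CPM + 0.1) of each tested gene minus its mean over the 5 libraries; right, the same for summed marker lists, with colours limited to 1.5 in either direction. Under this TMM scaling most class 3 and class 6 semaphorins are red in both TET2KO libraries, as is the endothelial list, while Sema4a, Sema4b and Plxnc1 are reddest in WT replicate 2, as is the macrophage list.

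The make-up of the semaphorin pool also differed between the libraries. Sema3g was 16.8%, 17.3% and 23.0% of all semaphorin TPM in WT and 23.8% and 24.6% in TET2KO. Sema4b was 7.02%, 14.3% and 5.25% in WT and 3.55% and 2.60% in TET2KO. Sema4d was 12.7%, 7.96% and 10.4% in WT and 6.73% and 6.69% in TET2KO. Of the 20 semaphorins 6 had shares that were higher in each TET2KO library than in every WT library (Sema3a, Sema3c, Sema3f, Sema3g, Sema5b and Sema6d), 2 had lower shares (Sema4b and Sema4d) and 12 overlapped. Among those with higher shares, Sema5b was not tested and had 1 to 5 counts per library, and Sema3a had 33 to 153 counts. Because shares of 1 pool sum to a whole they are not separate results. The measure is taken within the family, so no share over all genes can be set beside these counts.

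Plexins are the receptors of the semaphorins. Their summed level was 203, 274 and 184 TPM in WT and 289 and 302 TPM in TET2KO. Of 9 members 6 had a log2 fold change above 0, with a median of 0.16 against 0.63 for the 19 tested semaphorins (the difference was not tested). For 4 of the 9 plexins each TET2KO library exceeded every WT library, against 12.4% of all tested genes. The median of the 4 A-type plexins was 0.55 under TMM and -0.29 with endothelial scaling, and that of the other 5 was 0.13 and -0.70. All tested genes had a median of -0.86 with endothelial scaling.

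Plxna2, a receptor of class 6 semaphorins (chromosome 1, 194618218 to 194816869, plus strand), had levels of 39.7, 28.8 and 53.3 CPM (WT) and 150 and 67.3 CPM (TET2KO). TET2KO replicate 1 was more than 2 times any other library. The log2 difference of 1.42 (SE 0.41, edgeR adjusted p = 0.740) was 0.72 without that library and 1.89 without TET2KO replicate 2. Its share of the endothelial list was 0.636%, 0.561% and 0.626% in WT and 1.38% and 0.605% in TET2KO, so 1 library carried the difference on that measure.

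Plxna4, which transduces class 3 and class 6 signals, had levels of 19.2, 15.2 and 21.4 CPM (WT) and 34.7 and 37.1 CPM (TET2KO). Both TET2KO libraries were alike and lay above all WT libraries. The log2 difference was 0.95 (SE 0.20, edgeR adjusted p = 0.740, DESeq2 adjusted p = 0.069), and its exons overlap an antisense gene, Plxna4os3, whose reads could not be told apart without the strand setting. Plxnb1, a receptor of Sema4d, had levels of 6.20, 7.37 and 5.53 CPM (WT) and 9.33 and 17.4 CPM (TET2KO), a log2 difference of 1.07 (SE 0.32) that was 0.55 without TET2KO replicate 2 and 1.44 without TET2KO replicate 1. Its exons also overlap a gene on the opposite strand.

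Plxnd1 and Plxna1 were the most abundant plexins. Plxnd1, the main endothelial plexin of the developing vasculature, had levels of 134, 188 and 145 CPM (WT) and 173 and 168 CPM (TET2KO), a log2 difference of 0.13 (SE 0.20, edgeR adjusted p = 0.898). The groups overlapped in CPM, though not in TPM, at 64.1, 67.7 and 67.3 (WT) and 86.3 and 83.8 (TET2KO). The log2 difference was -0.70 with endothelial scaling, where the median of all tested genes was -0.86. As a share of the endothelial list Plxnd1 was 2.14%, 3.65% and 1.70% in WT and 1.58% and 1.51% in TET2KO. Plxna1 had levels of 135, 394 and 134 CPM (WT) and 232 and 261 CPM (TET2KO), a log2 difference of 0.16 (SE 0.52) that was 0.90 without WT replicate 2 and -0.10 and -0.08 without WT replicates 1 and 3.

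Plxnc1, the receptor of Sema7a on myeloid cells, had levels of 75.0, 167 and 47.8 CPM (WT) and 54.8 and 65.2 CPM (TET2KO). Without WT replicate 2 its log2 fold change of -0.69 (SE 0.53) was 0.0012. Plxnb2 ranged from 50.6 to 66.4 CPM in WT and from 68.2 to 94.0 CPM in TET2KO. Plxnb3 ranged from 1.56 to 5.61 CPM in WT and from 2.21 to 2.69 CPM in TET2KO, and Plxna3 from 3.65 to 7.18 CPM and from 5.29 to 5.68 CPM. The groups overlapped for Plxnc1, Plxnb3 and Plxna3.

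Robo receptors were led by Robo4, at a mean of 71.9 TPM against at most 0.361 TPM for Robo1, Robo2 and Robo3. Robo4 (ENSMUSG00000032125, chromosome 9, 37401897 to 37415115, plus strand) had levels of 76.6, 66.2 and 120 CPM (WT) and 161 and 128 CPM (TET2KO). WT replicate 3 lay just under TET2KO replicate 2, and the groups did not overlap. The log2 difference was 0.73 (SE 0.29, edgeR adjusted p = 0.847), 1.05 without WT replicate 3, and 0.0041 with endothelial scaling. As a share of the endothelial list Robo4 was 1.22%, 1.29% and 1.40% in WT and 1.48% and 1.16% in TET2KO. Robo3, the next gene on chromosome 9, had 7 to 36 counts in WT and 38 and 19 counts in TET2KO, or 0.420, 0.237 and 1.14 CPM and 1.15 and 0.595 CPM, and its groups overlapped.

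Robo1 and Robo2, which are receptors of Slit, were near the limit of detection. Robo1 had 8, 9 and 11 counts in WT and 20 and 26 in TET2KO, and Robo2 had 12, 12 and 6 counts in WT and 32 and 33 in TET2KO. The groups did not overlap for either gene. The log2 differences were 1.17 (SE 0.38, edgeR adjusted p = 0.765) for Robo1 and 1.56 (SE 0.44, edgeR adjusted p = 0.740) for Robo2. A list of 10 fibroblast genes summed to 140, 73.5 and 75.6 CPM in WT and to 152 and 147 CPM in TET2KO. Each TET2KO library was over every WT library for 4 of its genes and under for 0, against 12.4% of all tested genes each way. The groups overlapped for the collagen genes Col1a1, Col1a2 and Col3a1, with Col1a1 at 28.0, 12.3 and 7.12 CPM in WT and 22.8 and 18.2 CPM in TET2KO. Of 8 mesothelial genes 7 had each TET2KO library over every WT library and 0 under, against 12.4% of all tested genes each way. Their median log2 fold change was 1.71, against 0.60 for the fibroblast list. The part of fibroblasts and mesothelial cells in the counts of Robo1 and Robo2 was not tested.

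Slit ligands were scarce. Slit3, the most abundant, had levels of 7.15, 3.85 and 8.42 CPM (WT) and 9.82 and 9.21 CPM (TET2KO), a log2 difference of 0.55 (SE 0.36). Slit1 had levels of 1.89, 2.64 and 0.731 CPM (WT) and 0.906 and 1.53 CPM (TET2KO), with overlap, and Slit2 had 16 to 31 counts in WT and 40 and 49 in TET2KO. Of the 3 ligands, Slit2 and Slit3 had each TET2KO library over every WT library, against 12.4% of all tested genes.

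**Figure D4:**
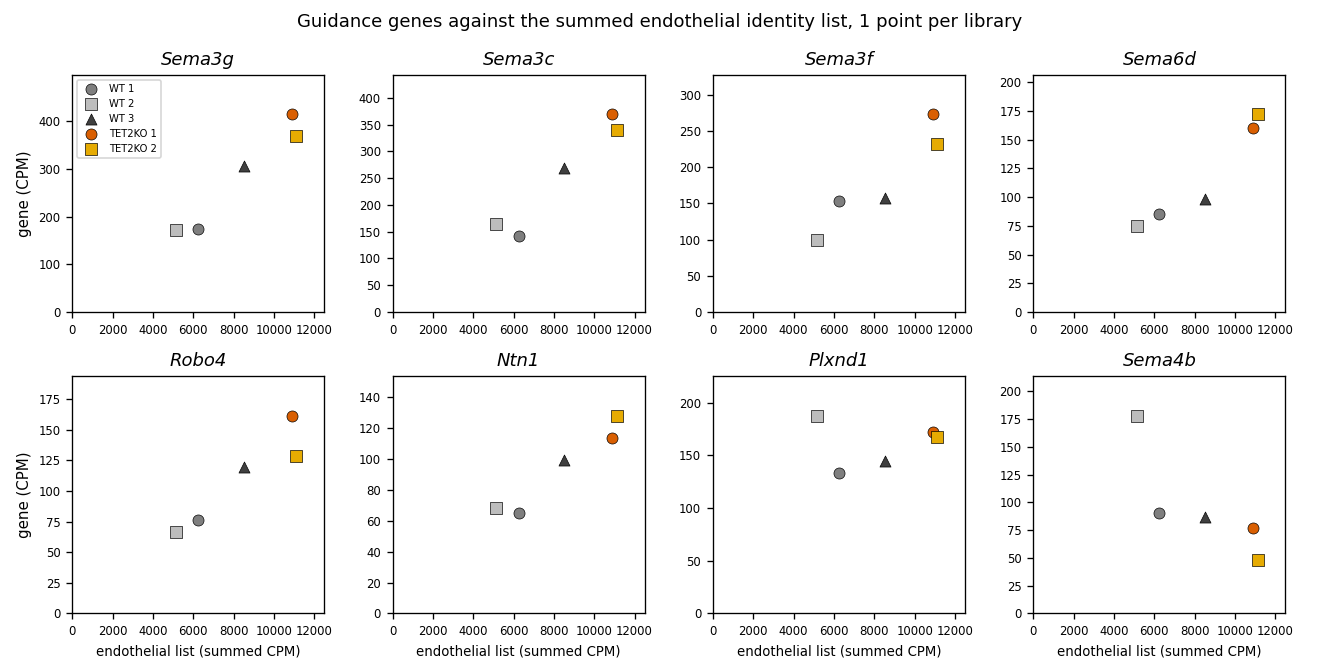
CPM of 8 genes against the summed CPM of the endothelial identity list, 1 point per library, with both axes from 0. Sema3g, Sema3c, Robo4 and Ntn1 are higher in WT replicate 3 and both TET2KO libraries, where the list is higher, than in WT replicates 1 and 2. Within these sets of libraries the order does not always follow the list: Sema3g is higher in TET2KO replicate 1 than in TET2KO replicate 2. Sema4b is highest in WT replicate 2 at 178 CPM.

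Netrins and their UNC5 receptors were represented by few expressed members. Ntn1, the secreted ligand netrin-1 (chromosome 11, 68209364 to 68400823, minus strand), had levels of 65.1, 68.3 and 99.3 CPM (WT) and 114 and 128 CPM (TET2KO), a log2 difference of 0.64 (SE 0.23, edgeR adjusted p = 0.812). Ntn4, a netrin of basement membranes (chromosome 10, 93640681 to 93747207, plus strand), had levels of 25.8, 17.4 and 23.4 CPM (WT) and 34.9 and 42.2 CPM (TET2KO), a log2 difference of 0.80 (SE 0.22, edgeR adjusted p = 0.740). Each TET2KO library exceeded every WT library for both genes. With endothelial scaling the log2 differences were -0.11 for Ntn1 and 0.028 for Ntn4. Ntn5 had 2, 7 and 0 counts in WT and 2 and 2 in TET2KO and was not tested.

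Unc5b, the endothelial netrin receptor (chromosome 10, 60762593 to 60831581, minus strand), had levels of 22.9, 10.7 and 27.9 CPM (WT) and 36.2 and 29.6 CPM (TET2KO). The highest WT library was within 2 CPM of the lower TET2KO library. The log2 difference was 0.68 (SE 0.40, edgeR adjusted p = 0.864), and it was 0.40 without WT replicate 2. Unc5a had levels of 8.62, 5.48 and 7.02 CPM (WT) and 7.79 and 11.5 CPM (TET2KO), with overlap, and its exons overlap Hk3 on the opposite strand. Unc5c had 66, 6 and 44 counts in WT and 41 and 22 in TET2KO. Unc5d had 0 counts in every library. That allows a level of up to 0.0846 to 0.110 CPM (3 counts per library, by library totals without TMM factors, counting error only).

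Partners of these families were read from lists that took genes by known function, and these lists too were chosen with earlier results known. Of 16 tested co-receptors and other receptors 12 had a log2 fold change above 0, with a median of 0.35. Each TET2KO library was over every WT library for 5 of them and under for 0, against 12.4% of all tested genes each way. At an unadjusted p under 0.05 in edgeR 4 were higher and 0 lower, against 5.32% and 0.539% of all genes. The 3 with the smallest p were Flrt2, a ligand of Unc5 receptors, at 2.66, 2.67 and 3.88 CPM in WT and 7.28 and 6.30 CPM in TET2KO, Erbb2, a receptor kinase that couples to B-type plexins, and Neo1, the netrin receptor neogenin. Their log2 differences were 1.14 (SE 0.28), 0.64 (SE 0.16) and 1.13 (SE 0.29). Dcc, the classical netrin receptor, was not tested, with at most 0.03 CPM in any library.

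Downstream effectors lay on both sides of 0. Of 30 plexin effectors 15 were above 0, with a median of 0.01. At an unadjusted p under 0.05 in edgeR 5 were higher and 0 lower, against 5.32% and 0.539% of all genes. Mras, Rras and Farp1, small GTPases and an exchange factor of the plexin pathway, had the smallest p, with log2 differences of 0.87, 0.48 and 0.80. Of 29 effectors of Robo, DCC and UNC5 receptors 10 were above 0, with a median of -0.08, and 1 was higher and 0 lower at that threshold, against 5.32% and 0.539% of all genes. In that list 3 genes had each TET2KO library over every WT library and 6 had each under (Vasp, Sos1, Pak2, Cdc42, Usp33 and Ezr, named after their values were seen). The plexin effectors had 8 over and 1 under. Over all tested genes the shares were 12.4% over and 12.4% under. Srgap1, a Slit-Robo GTPase-activating protein, had the smallest p of that list, at 22.3, 12.2 and 22.2 CPM in WT and 36.1 and 36.7 CPM in TET2KO (log2 difference 0.95, SE 0.29), followed by Enah with 0.99 and Ptk2 with 0.53. Of 5 other guidance ligands 2 were above 0, with a median of -0.04; Ntng2, Rgma and Draxin had the smallest p, with log2 differences of 0.58, 0.81 and -0.67. No gene of the 4 lists passed the correction in edgeR.

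As a share of the summed endothelial list, 4 of the 40 tested guidance genes were higher in each TET2KO library than in every WT library, and 5 were lower. With libraries scaled on that list, 1.03% of all tested genes were above in this sense and 57.0% below. Those above were Sema3a, Sema6d, Plxna4 and Robo2, of which Sema3a had 33 to 153 counts per library and Robo2 6 to 33. Those below were Sema4d, Sema4b, Sema4f, Plxna3 and Plxnd1. For the other 31 tested genes the groups overlapped on this measure.

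The authors' deposited table held 40 of the guidance genes and listed 5 as higher and 1 as lower at its adjusted p under 0.05, against 1.45% and 0.709% of the genes with an adjusted p in that table. In the authors' deposited table the log2 fold change was 1.09 for Sema3g, 1.11 for Sema3c, 0.95 for Robo4, 0.87 for Sema6a and 0.79 for Ntn1, and -1.33 for Plxnb3. For all 40 the authors' deposited value was within 0.05 of the ratio that sets WT replicate 3 with the TET2KO libraries, and for 3 within 0.05 of the ratio of the groups as labelled. These values are therefore no second estimate of the difference between TET2KO and WT as labelled. Sema6d, the gene with the smallest edgeR p here, had an adjusted p of 0.117 in the authors' deposited table.

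**Figure D5:**
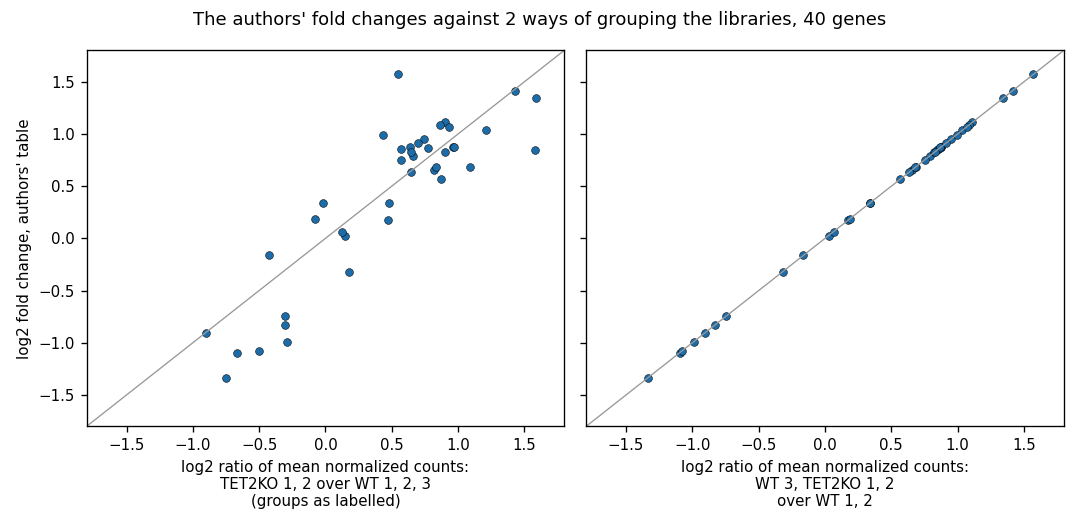
Log2 fold change in the authors' deposited table (vertical axis) for 40 guidance genes against the log2 ratio of mean normalized counts with the libraries grouped as labelled (left) and with WT replicate 3 set beside the TET2KO libraries (right); the grey line marks equality. All 40 points lie within 0.05 of the line on the right and 3 do so on the left.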

How the data were processed

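RNA-seq was read from 3 WT and 2 TET2KO libraries. The authors deposited counts per gene as whole numbers, and TPM values. Trimming was with Trimmomatic 0.36, alignment with STAR 2.5.2b to GRCm38, counting with featureCounts (Subread 1.5.2) and testing with DESeq2, per the submitters' processing notes. The annotation and strand setting are not given in the sources used here. A comparison table by the authors gave, per the file headers, a log2 fold change, a p-value and normalized counts (a signal divided by size factors).

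From the counts, edgeR 4.0.16 in R 4.3.3 compared TET2KO with WT by its quasi-likelihood F test with TMM scaling, filterByExpr and genotype as the sole term. In all 18727 genes were tested, with Benjamini-Hochberg adjustment over them and a threshold of 0.05. Standard errors were the absolute estimate over the root of F. Genes without a symbol (174, 0.011% of counts) were kept under their identifiers. DESeq2 1.42.0, limma 3.58.1, other scalings, filters, a replicate block and leaving out each library were alternatives. Every pair of libraries differed beyond counting noise.

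The gene set, the marker and pathway lists and the naming rule were chosen with earlier results of these data known. Values per library were given for genes past the correction in edgeR or DESeq2, for the 12 with the smallest p and for the 2 with the highest mean TPM in each class, and the 3 smallest p of each pathway list were named; other genes were given by range, and those with values per library beyond the rule (Sema4b, Unc5c and the untested genes) were added after their values were seen. Siglecf and Rgmc were in the lists but not matched. Coordinates are from GENCODE M21 (GRCm38).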

Additional observations from a re-analysis of the deposited data

How the results depend on the processing

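With 3 against 2 libraries and a biological coefficient of variation of 0.339, differences of the size seen here were not separable from library spread over all genes, and counting error limits Robo1, Robo2, Robo3, Slit2 and Sema3a further. DESeq2 called 61 genes in all and 1 guidance gene, and counted 1 guidance gene lower at an unadjusted p under 0.05. With scaling on the endothelial list the guidance genes higher and lower at that threshold were 0 and 2 (0.123% and 35.9% of all genes), those with each TET2KO library over or under every WT library were 4 and 5 (1.03% and 57.0% of all genes), and the median log2 fold change was -0.11. The median was 0.72 with library totals only and 0.85 on log2(TPM + 0.1), where the median of all tested genes was 0.064 and 0.17. Leaving out each library in turn gave 4 to 18 guidance genes higher and 0 to 1 lower at an unadjusted p under 0.05, 1 to 5 with each TET2KO library under every WT library (16.3% to 22.9% of all genes), and medians from 0.46 (without WT replicate 2) to 0.89 (without WT replicate 3).

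Replicate numbers are shared by the groups without a stated meaning. The deviations of same-numbered libraries from their group means correlated at 0.22 (replicates 1) and 0.49 (replicates 2). Crossed pairs gave -0.22 and -0.49, because the 2 TET2KO libraries deviate from their mean in mirror image. The values therefore rest on 1 TET2KO contrast and are not separate results. TET2KO has no replicate 3, so in a fit with the replicate number as a block WT replicate 3 did not add to the estimate. That edgeR fit gave 22 guidance genes higher and 5 lower at an unadjusted p under 0.05, against 8.4% and 7.52% of all genes. Its median was 0.86, against 0.89 without WT replicate 3, and 0 guidance genes were past the correction.

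Signs turned for the genes named next, some of them with a log2 fold change near the median of the set. All tested genes had a median of -0.86 with endothelial scaling. With endothelial scaling the log2 fold changes were -0.11 for Ntn1, -0.76 for Plxna1, -0.37 for Plxnb2, -0.70 for Plxnd1, -0.12 for Robo3, -0.098 for Sema3b, -0.15 for Sema4c, -0.66 for Sema4f, -0.11 for Sema5a, -0.29 for Sema6b, -0.070 for Sema7a, -0.16 for Slit3, -0.32 for Unc5a and -0.014 for Unc5b. Plxna3 was at 0.017 by limma-voom, 0.026 with upper quartile scaling, 0.074 with library totals, 0.0067 without a filter, 0.22 with the replicate block, and 0.14 and 0.22 on log2(TPM + 1) and log2(TPM + 0.1). On those TPM scales Sema3e was at 0.065 and 0.097, Sema4a at 0.025 and 0.027, and Sema4d at 0.15 and 0.15; Sema4d was also at 0.011 with library totals and 0.085 with the replicate block. Sema4g was at 0.0084 on log2(TPM + 0.1) and Unc5c at 0.071 by limma-voom. With each library left out, the ranges were -0.098 to 0.90 for Plxna1, -0.24 to 0.22 for Plxna3, -0.99 to 0.0012 for Plxnc1, -0.025 to 1.43 for Robo3, -1.10 to 0.63 for Sema3e, -0.70 to 0.31 for Sema4a, -0.28 to 0.079 for Sema4d, -0.094 to 0.40 for Sema4f, -0.58 to 0.19 for Sema4g and -0.92 to 0.26 for Unc5c. Except for Sema6d in DESeq2, no guidance gene passed the correction in any setting run. The causes were not tested.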

Other observations

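WT replicate 3 was the highest of the WT libraries for 21 of the 40 tested guidance genes and for 35.9% of all tested genes. WT replicate 2 was the lowest of the 5 libraries for 21 of the 40 and for 32.9% of all tested genes, and the highest for 8 of the 40 and for 34.98% of all tested genes. Mesothelial genes, which are no part of endothelium, summed to 162, 426 and 57.3 CPM in WT and to 93.2 and 242 CPM in TET2KO, a sum carried by Krt19 (147, 416 and 46.9 CPM in WT and 61.1 and 196 CPM in TET2KO). Over the 8 genes of this list the median log2 difference was 1.71. Each TET2KO library was over every WT library for 7 of them, against 12.4% of all tested genes. Under TMM the median log2 fold change of the other marker lists was 0.73 for lung capillary, 0.68 for arterial and venous and 0.40 for lymphatic endothelium, 0.80 for alveolar and 1.12 for airway epithelium, 0.60 for fibroblasts, 0.42 for pericytes and smooth muscle and 0.28 for platelets. It was -1.01 for macrophages and monocytes, -0.034 for neutrophils, -0.28 for B cells and 0.00013 for T and NK cells. No gene of these lists passed the correction in edgeR, and their part in the guidance gene results was not tested.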
